A study of Mus musculus with 44 samples.

Results

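This account covers the chromatin response to depolarization of mouse cortical neurons carrying a non-targeting guide RNA at 18 days in vitro (DIV18). It rests on the peak lists of 4 of the 44 ATAC-seq libraries in the series, chosen by their titles: 2 libraries of depolarized neurons and 2 of unstimulated neurons. ATAC-seq inserts sequencing adapters into open chromatin, so that promoters and enhancers in use stand out as peaks. The depolarized neurons had been given 50 mM KCl for 30 min, while in the unstimulated wells the medium was taken off and put back with nothing added. Neurons of both groups were primary cultures from cortex of embryonic day 16.5 mice, received a CRISPR guide with no genomic target, and were silenced overnight with 1 µM tetrodotoxin, a sodium channel blocker, and 100 µM D-AP5, an NMDA receptor blocker. DNase at 200 U/mL was in the medium of all wells during the treatment. The control guide vector and the overnight silencing are therefore shared by both groups, and the unstimulated group is a silenced culture rather than a spontaneously active one. The labels call the cortex of each embryo a biological replicate but tie no library to an embryo, so p-values measure the spread between these libraries, which may be partly technical.

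A pair of further responses served for comparison. The first was that of Smarcc2 knockout neurons with an empty vector at DIV18, and the second that of non-targeting neurons at 7 days in vitro (DIV7), each with 2 depolarized and 2 unstimulated libraries. The spread between replicates was estimated from all 20 DIV18 libraries, among them Smarcc2 knockout neurons with an addback of WT Smarcc2, of Smarcc2(S586A) or of Smarcc2(S586E), each with and without depolarization. Smarcc2 encodes BAF170, a core subunit of the BAF chromatin remodelling complex, which moves nucleosomes with the energy of ATP.

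Depolarization with high potassium opens voltage-gated calcium channels. Calcium entry activates kinases that phosphorylate CREB and the SRF partner proteins already sitting on promoters, and within minutes the immediate early genes are transcribed without new protein synthesis. Many of these genes encode transcription factors (Fos, Jun, Egr, Npas4 and Nr4a families) that act on a later wave of genes for synaptic and secreted proteins. CREB binds the cyclic AMP response element (CRE), and SRF binds the CArG box.

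The promoters of 7 early activity genes are shown because their start regions gained accessibility and because they carry CRE letters. Each is given 5′ to 3′ on the gene's own strand, with 250 bases before and 50 bases from the annotated start, from RefSeq on GRCm38.p6, which has the coordinates of the mm10 build of the peak lists. Capitals mark the full CRE (TGACGTCA) or its short form (TGACG, or CGTCA on the other strand). The intervals are chr12:85473640-85473939 for Fos (plus strand), chr7:19309996-19310295 for Fosb (minus), chr8:84978699-84978998 for Junb (minus), chr19:4989922-4990221 for Npas4 (minus), chr15:101266596-101266895 for Nr4a1 (plus), chr17:26508423-26508722 for Dusp1 (minus) and chr1:134079106-134079405 for Btg2 (minus).
Fos: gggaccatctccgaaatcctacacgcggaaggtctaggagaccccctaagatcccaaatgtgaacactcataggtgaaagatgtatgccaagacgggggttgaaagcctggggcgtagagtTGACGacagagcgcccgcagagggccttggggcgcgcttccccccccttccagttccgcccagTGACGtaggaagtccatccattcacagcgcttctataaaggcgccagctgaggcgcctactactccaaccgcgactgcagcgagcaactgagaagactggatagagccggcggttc
Fosb: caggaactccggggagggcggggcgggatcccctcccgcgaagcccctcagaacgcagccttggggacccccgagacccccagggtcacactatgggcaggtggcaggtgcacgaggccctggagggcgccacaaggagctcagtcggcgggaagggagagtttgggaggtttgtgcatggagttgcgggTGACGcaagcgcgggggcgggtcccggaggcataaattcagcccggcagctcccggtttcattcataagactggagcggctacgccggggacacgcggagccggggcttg
Junb: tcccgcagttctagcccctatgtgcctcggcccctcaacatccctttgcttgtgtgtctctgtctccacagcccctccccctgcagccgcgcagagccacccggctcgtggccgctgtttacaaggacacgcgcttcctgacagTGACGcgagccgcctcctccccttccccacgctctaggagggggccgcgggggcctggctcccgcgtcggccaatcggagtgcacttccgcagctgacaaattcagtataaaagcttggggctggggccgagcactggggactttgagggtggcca
Npas4: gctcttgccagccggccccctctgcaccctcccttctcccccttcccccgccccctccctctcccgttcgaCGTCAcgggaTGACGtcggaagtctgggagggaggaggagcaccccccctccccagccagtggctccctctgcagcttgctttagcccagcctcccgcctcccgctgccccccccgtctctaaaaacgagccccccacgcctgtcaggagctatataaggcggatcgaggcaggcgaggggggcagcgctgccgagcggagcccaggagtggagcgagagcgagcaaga
Nr4a1: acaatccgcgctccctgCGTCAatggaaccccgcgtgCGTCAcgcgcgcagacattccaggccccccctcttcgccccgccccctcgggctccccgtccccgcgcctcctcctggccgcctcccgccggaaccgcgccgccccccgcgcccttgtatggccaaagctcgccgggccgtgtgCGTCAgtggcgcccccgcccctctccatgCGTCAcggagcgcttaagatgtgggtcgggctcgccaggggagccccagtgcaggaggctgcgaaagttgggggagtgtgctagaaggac
Dusp1: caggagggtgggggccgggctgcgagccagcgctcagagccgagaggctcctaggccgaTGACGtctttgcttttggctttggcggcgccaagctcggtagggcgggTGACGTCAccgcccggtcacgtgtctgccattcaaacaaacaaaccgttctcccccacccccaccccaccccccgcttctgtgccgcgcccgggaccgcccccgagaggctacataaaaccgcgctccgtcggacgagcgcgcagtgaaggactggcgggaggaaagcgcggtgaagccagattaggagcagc
Btg2: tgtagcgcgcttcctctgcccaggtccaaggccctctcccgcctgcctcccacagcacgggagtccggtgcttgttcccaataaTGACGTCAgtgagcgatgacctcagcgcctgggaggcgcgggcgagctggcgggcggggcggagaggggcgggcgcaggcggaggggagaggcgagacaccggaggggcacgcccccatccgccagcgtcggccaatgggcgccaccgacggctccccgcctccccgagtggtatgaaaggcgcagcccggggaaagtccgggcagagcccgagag

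Dusp1 and Btg2 held the full CRE, beginning 143 and 166 bases before the start. Fos held the short form 129 and 66 bases before its start, Fosb 60, Junb 106 and Npas4 179 and 169, and Nr4a1 held 4 copies between 233 and 40 bases before its start. Among 30 promoters of 23 early transcription factor genes in the table, 22 (73.3%) held the short form, against 21.0% of all 31396 promoters of the table and 30.0% of the 13075 promoters of genes with a tested start region. The full CRE stood in 10.0% of the early transcription factor promoters and in 1.83% of all promoters, and each full CRE also counts as a short form on both strands. The full CRE stood in 3.10% of the promoters of genes with a tested start region. Not every list was so rich in these letters. The short form stood in 53.3% of the early signalling promoters and 35.5% of the late and secreted ones, and in 31.1% of the 1193 promoters of all genes whose start region rose in both units, near the 30.0% of tested starts. A CArG box stood in 4 of the 30 early transcription factor promoters, all of them alternative and mostly overlapping promoters of Egr2, so this is 1 gene. It stood in 1.57% of all promoters and 1.19% of those with a tested start region. The AP-1 motif (TGANTCA) stood in 0 of the 30 promoters, in 19.4% of the late and secreted ones and in 7.84% of all, and the EGR motif (GCGTGGGCG) in 3.33% of the 30 and 0.605% of all. The Npas4 motif searched (TCGTG) stood in 16.7% of the early transcription factor promoters and in 16.2% of all. Both strands were searched. These shares describe letters in a 300-base window, and a gene can have several promoters in the table. Of the 90 genes in the 3 activity lists used below, 67 had a promoter in the table.

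The peak lists give no read counts, so libraries were compared by rank. Summits of the autosomal peaks were ranked by their significance (−log10 of the p-value), the best being rank 1, and the top 100000 of each library were kept. The summit score is log2(100000/rank), set to 0 where a 500-bp region held no such summit, so a difference of 1 is a factor of 2 in rank, and a difference from libraries without a summit is understated. The same was done for the top 75000 intervals, where a merged interval gives its rank to every region it covers. A region is called changed at an adjusted p below 0.05 (limma with Benjamini-Hochberg adjustment over all regions), and is named as changed where summit and interval call it with the same sign unless stated otherwise.

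The libraries themselves differed with the treatment. The background pileup, a measure that grows with sequencing depth and was read from the steps of the fold enrichment column, was 3.68 and 2.85 in depolarized libraries and 1.51 and 2.23 in unstimulated ones. The depolarized lists held 216877 and 225958 intervals and the unstimulated ones 233653 and 266049, while the top 75000 autosomal intervals covered 64.7 and 62.6 Mb in depolarized and 51.5 and 57.8 Mb in unstimulated libraries. The fold enrichment at rank 1000 was 183 and 172 in depolarized and 105 and 127 in unstimulated libraries. In each of these measures the 2 groups did not overlap. Their part in the results was looked at by adding a covariate to the fit, either the background pileup or the log2 number of intervals. Counts with the pileup stand beside the main ones below, as those with the covariate. With the number of intervals as covariate 6466 regions rose and 10780 fell by summit, and 11346 rose and 6388 fell by interval. Covered length and fold enrichment were not used as covariates. Start regions of excitatory neuron markers were well represented (18 of 20 genes with a summit in every library), whereas microglia markers had 3 of 15 genes and vascular and meningeal markers 2 or 3 of 15 in each of the 4 libraries. Neural progenitor markers were well represented too, with 16 of 18 genes in both depolarized libraries and 16 and 14 in unstimulated ones. Astrocyte markers had 10 of 16 genes in both depolarized libraries and 11 in both unstimulated ones. In the top 20000 summits stood 8 and 7 excitatory marker starts in depolarized and 6 and 7 in unstimulated libraries, and 0 microglia marker starts in every library. Progenitor marker starts there numbered 10 and 9 in depolarized and 3 and 7 in unstimulated libraries.

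In the main fit the ranking of accessible sites differed between depolarized and unstimulated neurons on a wide scale. The libraries of the 2 groups also differed in the measures above, and the number of calls depended on the setting. Gene starts gained more often than they lost, and the gains with the largest values lay at the immediate early genes. The median gain and the median loss were of like size, while no loss reached the size of the largest gains. By summit, 6458 of 112681 regions rose (5.73%) and 10508 fell (9.33%). By interval, 10429 of 125576 regions rose (8.30%) and 5970 fell (4.75%), so the balance of gains and losses depends on the unit (38.1% of called regions rose by summit and 63.6% by interval). Both units called 4457 regions risen (3.96%) and 4912 fallen (4.36%), and in 45 regions they disagreed in sign. In all 4457 and all 4912 the 2 depolarized libraries stood apart from the 2 unstimulated ones. These regions had been called on the same libraries, so the separation is no separate evidence. With only the 4 non-targeting libraries in the fit, 334 regions rose and 145 fell by summit. With the background pileup as a covariate, 2398 rose and 5115 fell. By summit, 3068 rose and 3926 fell without depolarized library 1, 3265 rose and 4085 fell without depolarized library 2, and 3303 rose and 7982 fell without unstimulated library 1. By interval, 3870 rose and 767 fell with only the 4 libraries, 3189 rose and 2157 fell with the covariate, 4573 rose and 1785 fell without depolarized library 1, 5188 rose and 1870 fell without depolarized library 2, and 4746 rose and 4086 fell without unstimulated library 1.

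The gains had a long tail and the losses did not. Among regions risen in both units the median change was 1.10 on the log2 rank score (quartiles 0.85 and 1.40) and the largest 11.60. In 371 the change exceeded 2 and in 83 it exceeded 4. Among fallen regions the median was −1.17 and the largest fall 3.20, with 223 falling by more than 2 and 0 by more than 4. The fallen regions had a median mean score of 0.026 in depolarized and 1.48 in unstimulated neurons, so at the median their rank was low in silenced neurons already. The risen regions had a median mean score of 1.89 in depolarized and 0.35 in unstimulated neurons. Of the risen regions, 1365 had no summit in either unstimulated library, and of the fallen regions 2365 had no summit in either depolarized library. The 83 gains above 4 lay nearest to 28 genes, 16 of them in the activity lists, and 58 of the 83 regions belonged to those 16 genes. For the background, the 3 activity lists held 557, 460 and 274 of the 103873 tested regions within 100 kb of a gene. Fosb held 9 of them, Npas4 8, Fos and Nr4a1 7 each, and Arc and Egr1 5 each. Of the 83, 81 or 82 were called risen with only the 4 libraries, with the covariate and without any 1 library. The 83 had been chosen for their size in these same libraries, so this is no independent check. By place, 29 of the 83 lay within 1 kb of a gene's 3′ end, 22 at distal sites, 18 inside genes, 7 at gene starts and 7 near an end of a gene whose strand is not in the annotation table.

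Gene starts rose more often than they fell in either unit. By summit 2335 of 19374 start regions rose (12.1%) and 536 fell (2.77%), and by interval 13.5% rose and 2.31% fell. Regions inside genes showed the opposite balance by summit, with 2036 of 50201 risen (4.06%) and 6027 fallen (12.01%), but not by interval, with 7.08% risen and 5.98% fallen. Sites over 100 kb from a protein-coding gene fell in 11.4% and rose in 2.26% by summit, and by interval fell in 4.73% and rose in 4.29%. Gene starts made up 24.2% and 24.1% of the regions holding a top summit in depolarized libraries and 19.5% and 19.8% in unstimulated ones. The groups did not overlap, but with 2 against 2 libraries an exact permutation test cannot give a p below 0.333. With the covariate 815 start regions rose and 356 fell, and 837 rose and 165 fell without depolarized library 1, 917 and 216 without depolarized library 2 and 1042 and 391 without unstimulated library 1. With only the 4 libraries 72 start regions rose and 20 fell. Inside genes 75 rose and 79 fell with only the 4 libraries, 1104 rose and 2360 fell without depolarized library 1, 1152 and 2417 without depolarized library 2, 1093 and 4702 without unstimulated library 1, and 729 and 3007 with the covariate. Beyond 100 kb falls numbered 1 with only the 4 libraries, 344 and 342 without depolarized library 1 or 2, and 334 with the covariate. The order of the places also depended on the setting, since with only the 4 libraries 3.05% of 3′ end regions and 0.422% of start regions rose.

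**Figure D1:**
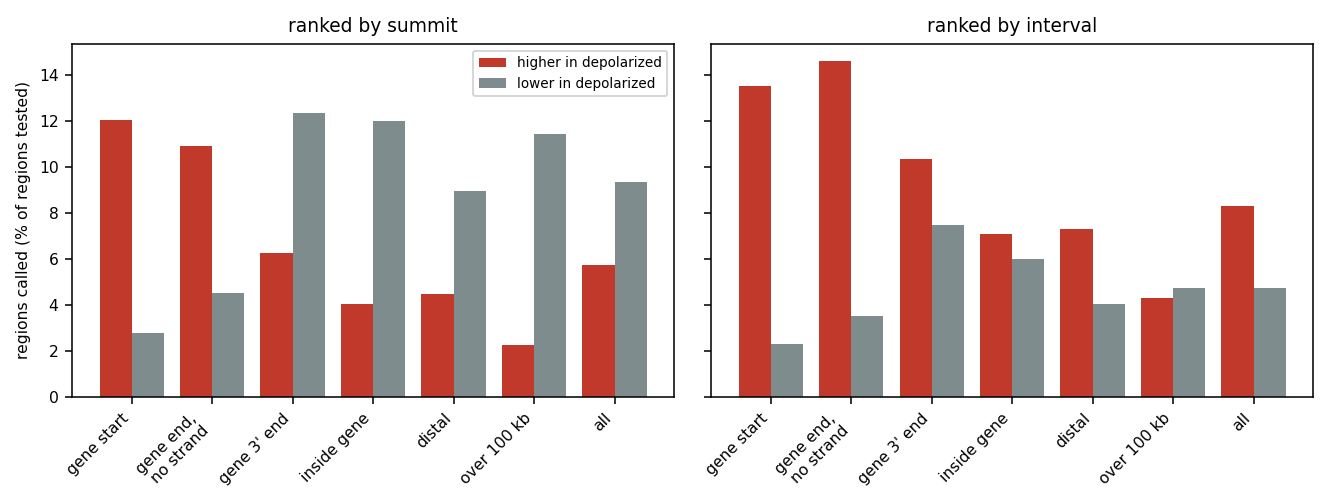
Share of tested regions called higher (red) or lower (grey) in depolarized than in unstimulated neurons, by place, ranked by summit (left) and by interval (right). Gene starts gained in both units (12.1% and 13.5% risen), while regions inside genes lost more than they gained by summit alone (12.01% fallen, 4.06% risen).

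At the Fos gene, which encodes the AP-1 subunit c-Fos and is a standard marker of recently active neurons, the start region (chr12:85473700-85474199) had summit ranks 255 and 220 in depolarized and 8568 and 6156 in unstimulated neurons. Both depolarized libraries stood far above both unstimulated ones, a change of 4.94 ± 0.34 (SE; limma, adjusted p = 1.45e-06). Its AP-1 relative Fosb (chr7:19309774-19310273) had ranks 3788 and 4118 in depolarized and 38899 and 35764 in unstimulated neurons (3.24 ± 0.30, adjusted p = 2.32e-05). The start of Junb, which encodes a dimer partner of Fos proteins (chr8:84978477-84978976), was already open before the stimulus. Its ranks were 521 and 359 in depolarized and 1752 and 2133 in unstimulated neurons (2.16 ± 0.35, adjusted p = 0.00157). The start of Jun itself ranked 351 and 176 in depolarized and 527 and 379 in unstimulated neurons, and its change of 0.85 did not pass the test (adjusted p = 0.167).

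The annotation table gives no strand for Egr1, Egr3 and Arc, so their region is the one with the best mean score near an annotated end. For the zinc finger factor Egr1, a target of SRF, this region (chr18:34860600-34861099) was among the top 1000 summits in all 4 libraries. Its ranks were 92 and 46 in depolarized and 282 and 216 in unstimulated neurons, and the groups did not overlap. The change of 1.92 ± 0.50 (adjusted p = 0.0199) failed the test in 4 of 15 alternative settings, with an adjusted p of up to 0.177. Other members of the family started from lower ranks and changed more. Egr3 (1196 and 975 in depolarized, 19342 and 12725 in unstimulated) rose by 3.86 ± 0.40 (adjusted p = 7.12e-05). Egr4 rose by 3.34 ± 0.33 (adjusted p = 4.22e-05) and Egr2, also known from hindbrain and Schwann cell development, by 2.44 ± 0.31 (adjusted p = 0.000279).

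Npas4, a neuron-specific factor induced by calcium entry, had start ranks (chr19:4989675-4990174) of 3799 and 3692 in depolarized and 20486 and 27203 in unstimulated neurons. The change was 2.66 ± 0.33 (adjusted p = 0.000285) with no overlap of the groups. The orphan nuclear receptor gene Nr4a1 (chr15:101266573-101267072) had ranks 580 and 894 in depolarized and 20960 and 15052 in unstimulated neurons (4.62 ± 0.40, adjusted p = 1.21e-05). Its relative Nr4a3 rose by 2.14 ± 0.30 (adjusted p = 0.000555). Nr4a2, the third member, had no start summit in unstimulated neurons and ranks of only 74625 and 62853 in depolarized ones (0.55 ± 0.17, adjusted p = 0.0467), a call lost in 8 of 12 alternative settings.

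Arc, whose protein drives removal of AMPA receptors from synapses, had ranks of 506 and 835 in depolarized and 5096 and 5745 in unstimulated neurons in its region (chr15:74672214-74672713). The groups did not overlap and the change was 3.06 ± 0.85 (adjusted p = 0.0268), but this call was lost in 6 of 15 alternative settings, among them the omission of any 1 of the 4 libraries, with an adjusted p of up to 0.182. The start region of Bdnf, the gene of a secreted neurotrophin with several alternative promoters (chr2:109677144-109677643), had ranks of 6474 and 7831 in depolarized and 21100 and 26171 in unstimulated neurons. It rose by summit (1.72 ± 0.24, adjusted p = 0.000517) but not by interval (0.85, adjusted p = 0.129). A second Bdnf start, at chr2:109692177-109692676, with ranks 8749 and 14608 in depolarized and 33557 and 38188 in unstimulated neurons, rose in both units (1.66 ± 0.36 by summit, adjusted p = 0.00782).

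**Figure D2:**
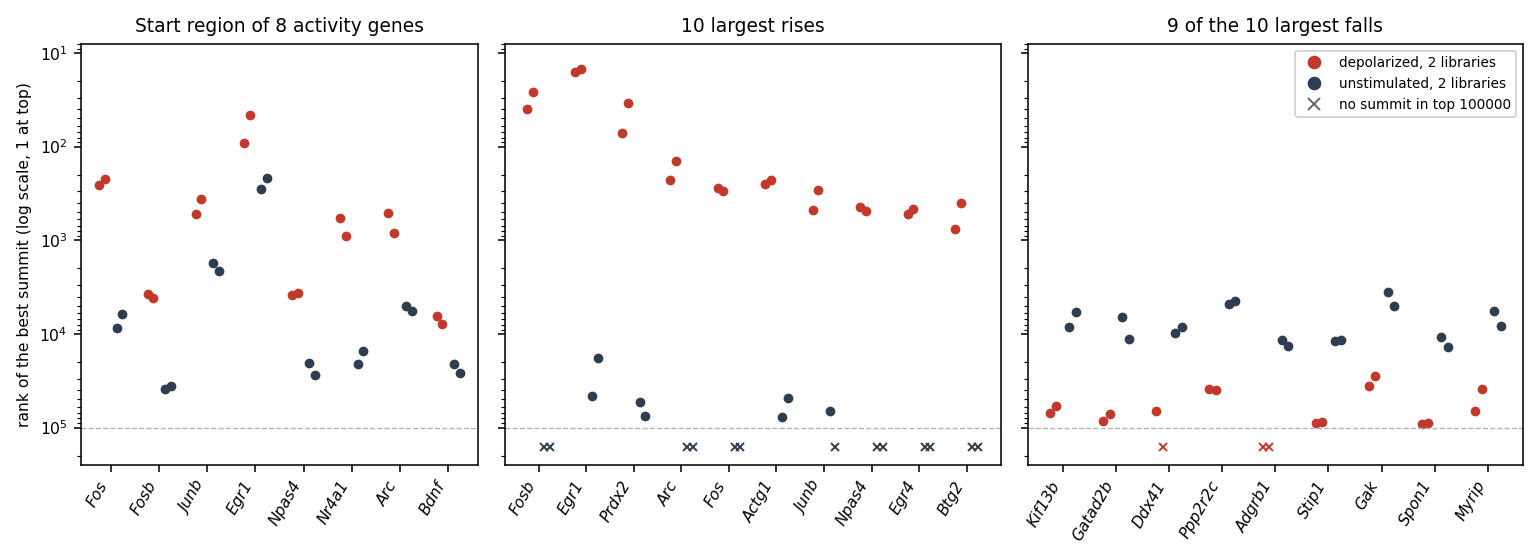
Rank of the best summit in each library (log axis, rank 1 at the top) for the start region of 8 activity genes (left), the 10 largest gains (middle) and 9 of the 10 largest losses (right), with depolarized libraries in red, left of the unstimulated ones in dark blue. Crosses mark libraries with no summit in the top 100000, as at the Fosb 3′ end with ranks 40 and 26 against no summit. The 2 groups stand apart in the 8 start columns. In the other columns this was a condition of the choice, since gains and losses were taken only where the groups did not overlap.

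Across the 3 lists of activity genes, 83 genes had a start region. It rose by summit in 46, fell in 1 and was not called in 36, and both depolarized libraries stood above both unstimulated ones in 61. The rises numbered 28 with the covariate, 29 without depolarized library 1, 30 without unstimulated library 1 and 17 of 78 with only the 4 libraries. Among early transcription factors 21 of 30 starts rose, with a median change of 1.12 over all 30. These included Btg2, an antiproliferative cofactor (2.91 ± 0.27, adjusted p = 2.74e-05), and the clock gene Per1, called by summit only (3.28 ± 0.29, adjusted p = 1.96e-05). Among early signalling and feedback genes 15 of 30 rose (median 0.81). Examples are the MAP kinase phosphatase gene Dusp1, with ranks 1743 and 1300 in depolarized and 10484 and 8262 in unstimulated neurons (2.63 ± 0.23, adjusted p = 1.54e-05), and Homer1, a synaptic scaffold with an activity-induced short form (2.09 ± 0.36, adjusted p = 0.00196). Among late and secreted activity genes 10 of 23 rose (median 0.61), including the prohormone convertase gene Pcsk1 (2.34 ± 0.32, adjusted p = 0.000546), the secretogranin gene Scg2 (1.74 ± 0.19, adjusted p = 0.000124) and Rgs4, a regulator of G protein signalling (1.89 ± 0.23, adjusted p = 0.000227). As background, 12.1% of all start regions on a known strand rose, and 10.9% of regions near an end of a gene without one. The 83 are a different kind of set, with 1 best-scoring region per gene and both kinds of gene. Over every start region on a known strand, 37 of 64, 25 of 65 and 13 of 34 rose in the 3 lists. Starts of Fosl2 (change 0.67, adjusted p = 0.242), Klf4 (0.17, adjusted p = 0.711), Klf10 (−0.64, adjusted p = 0.294), Crem (0.37, adjusted p = 0.452) and Dusp6 (1.31, adjusted p = 0.158) were not called. The 1 fallen start was that of Bhlhe40, a repressor linked to the clock, by summit only (−1.03, adjusted p = 0.0288).

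The largest gains of all were not at starts but near the far ends of these genes. A region 474 bp from the 3′ end of Fosb (chr7:19301973-19302472) ranked 40 and 26 in depolarized neurons and held no summit in either unstimulated library (11.60 ± 0.50, adjusted p = 2.28e-08). A region 589 bp beyond an end of Egr1 (chr18:34865296-34865795) ranked 16 and 15 in depolarized and 46173 and 18177 in unstimulated neurons (10.87 ± 0.37, adjusted p = 4.76e-09). Both sites were within the top 50 autosomal summits of each depolarized library. A region by Prdx2, a peroxiredoxin gene that neighbours Junb (chr8:84974996-84975495, within 5 kb of both), ranked 71 and 34 in depolarized and 53300 and 75654 in unstimulated neurons (10.34 ± 0.40, adjusted p = 1.02e-08). Closer to Junb, 867 bp from its 3′ end, a region ranked 471 and 292 in depolarized neurons and 66410 in one unstimulated library, with no summit in the other (7.78 ± 0.55, adjusted p = 1.93e-06).

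Several other regions of the same kind had no unstimulated summit in either library. At Arc (chr15:74668712-74669211) the depolarized ranks were 230 and 142 (9.11 ± 0.59, adjusted p = 9.14e-07). At the 3′ end of Fos (chr12:85477152-85477651) they were 278 and 300 (8.44 ± 0.63, adjusted p = 3.77e-06). At the 3′ end of Npas4 (chr19:4983500-4983999) they were 441 and 492 (7.75 ± 0.51, adjusted p = 1.12e-06). Here a site that was not among the top 100000 summits of silenced neurons was among the top 500 after 30 min of KCl. Egr4 (ranks 527 and 465, change 7.66 ± 0.53, adjusted p = 1.62e-06) and Btg2 (ranks 764 and 403, change 7.49 ± 0.82, adjusted p = 0.000103) had the same pattern at their 3′ ends. Also among the 10 largest gains was a region 1648 bp from Actg1, a cytoplasmic actin gene (chr11:120343790-120344289). It had ranks 253 and 225 in depolarized and 77692 and 47792 in unstimulated neurons (8.00 ± 0.63, adjusted p = 6.23e-06). All 10 calls held in every alternative setting in which the region could be measured, including the fit of the 4 libraries alone (largest adjusted p = 0.005). The 10 regions had been chosen for their size in these same libraries.

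A larger change at the 3′ end than at the start was not general. Of 40 activity genes with both regions on a known strand, 18 changed more at the 3′ end. The medians of all 40 were 1.26 at the start and 0.60 at the 3′ end. Over all 1535 genes with both regions the medians were 0.13 and −0.11, and 471 of these genes changed more at the 3′ end. A gene can have several 3′ end regions, and the compared one need not have the largest change. Junb counted under the start (0.99 at the 3′ end, 2.16 at the start), although another of its 3′ end regions rose by 7.78. Fos (8.44 at the 3′ end, 4.94 at the start), Fosb (11.60 and 3.24), Npas4 (7.75 and 2.66) and Egr4 (7.66 and 3.34) had the larger change downstream. Jun did too, with 5.50 ± 0.44 at the 3′ end (adjusted p = 7.13e-06) and the uncalled 0.85 at the start. Nr4a1 changed about equally at both (4.73 and 4.62), and Egr2 changed by 0.12 at the 3′ end and 2.44 at the start. These differences between the places of a gene were not tested.

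Between start and end, the body of Nr4a1 gained along its length. The 10 regions from 2003 bp after the start to the 3′ end had no summit in either unstimulated library, and each rose, by 2.99 to 4.87. A region 1054 bp past the Nr4a1 end (chr15:101275600-101276099) ranked 778 and 730 in depolarized neurons and held no unstimulated summit (7.05 ± 0.64, adjusted p = 2.29e-05). Counting every tested region nearest to the gene, with call rates of 5.73% risen and 9.33% fallen over all regions as background, 27 of 27 rose by summit at Npas4, 19 of 28 at Fos, 16 of 22 at Fosb and at Nr4a1, 13 of 18 at Egr1, 13 of 21 at Arc, 6 of 8 at Junb and 7 of 20 at Bdnf, and 0 of the 166 regions fell, also at an unadjusted p below 0.05 (limma). Egr1 had 8 risen regions without depolarized library 2 and 7 with the covariate, Npas4 16 with the covariate, and Bdnf 3 without depolarized library 1 and 0 with only the 4 libraries. Many of the 166 regions had no summit in either unstimulated library, so by summit they could only rise or stay at 0. These were 19 regions at Npas4, 18 at Nr4a1, 16 at Fos and 14 at Fosb. At Arc and Bdnf they were 8 each, at Egr1 7 and at Junb 1. The count of 0 falls was thus partly fixed in advance. Neighbouring regions share an interval and reads of the same locus, so they are not independent.

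**Figure D3:**
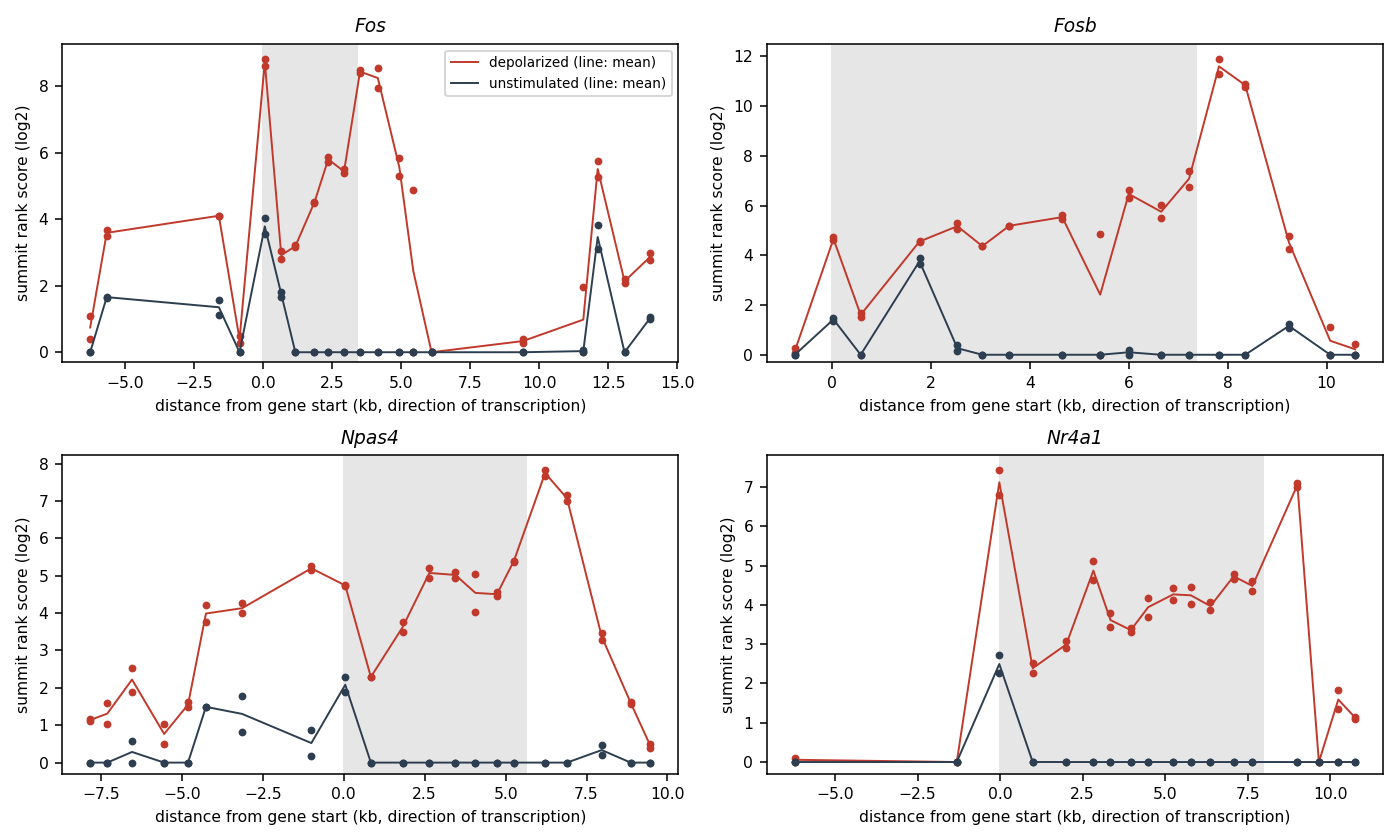
Summit score of each library (points) and group mean (lines) along 4 activity genes, by distance from the gene start in the direction of transcription, with depolarized libraries in red and unstimulated ones in dark blue and the gene body shaded. Depolarized neurons scored higher across the body and beyond the 3′ end, for example by 8.44 at the Fos 3′ end and 11.60 at the Fosb 3′ end, where both unstimulated libraries scored 0.

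Distal sites around Fos that were open in silenced neurons too had smaller changes. A site 37587 bp from Fos (chr12:85436054-85436553) ranked 1446 and 1866 in depolarized and 4339 and 6603 in unstimulated neurons (1.70 ± 0.27, adjusted p = 0.00142). A site 18422 bp away (chr12:85455219-85455718) ranked 348 and 430 in depolarized and 1716 and 1000 in unstimulated neurons (1.76 ± 0.35, adjusted p = 0.00501). On the other side of the gene, 8741 bp past its 3′ end (chr12:85485766-85486265), the ranks were 2613 and 1845 in depolarized and 11588 and 7097 in unstimulated neurons (2.05 ± 0.29, adjusted p = 0.000584). At all 3 sites the depolarized libraries stood above the unstimulated ones. By Arc, a site 6744 bp from the gene (chr15:74679065-74679564) ranked 680 and 915 in depolarized and 9392 and 7481 in unstimulated neurons (3.41 ± 0.42, adjusted p = 0.000269).

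Gene cover, which is built from the intervals, gave more rises than falls, as the interval ranks did and the summit ranks did not. The bases of each gene and 5 kb to either side that were covered by the top 75000 intervals rose in 1934 of 16332 genes (11.8%) and fell in 140 (0.857%), on the log2(bases + 500) scale. The median change of all genes was 0.17, and the covered total itself was higher in depolarized libraries. With the background pileup as a covariate 404 genes rose and 172 fell, and 668 rose and 81 fell without unstimulated library 1, 646 and 53 without depolarized library 1, and 832 and 50 without depolarized library 2. Cover of Homer1 was 38073 and 28699 bp in depolarized and 3598 and 3644 bp in unstimulated neurons (3.03 ± 0.20, adjusted p = 8.99e-07). Nr4a1 had 20043 and 18287 bp in depolarized and 1903 and 2559 bp in unstimulated neurons (2.86 ± 0.14, adjusted p = 6.30e-08). For Npas4 it was 23172 and 22736 bp in depolarized and 3799 and 5395 bp in unstimulated neurons (2.22 ± 0.14, adjusted p = 8.00e-07), and for Rgs4 12295 and 12359 bp in depolarized and 1306 and 1243 bp in unstimulated neurons (2.85 ± 0.17, adjusted p = 3.15e-07). In each of these genes the depolarized libraries covered several times as many bases. Cover rose in 26 of 30 early transcription factors, 21 of 30 early signalling genes and 10 of 28 late genes, against 11.8% of all genes. It fell in 0 of these 88 genes, also at an unadjusted p below 0.05 (limma). With 0.857% of all genes fallen, 0 of 88 is near the overall share. The synapse and excitability, housekeeping and microglia lists also had 0 falls by cover.

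The gene lists were then compared by the regions around their genes. Within 100 kb of their genes, 6.03% of all regions rose and 9.15% fell by summit. Around early transcription factors 232 of 557 regions rose and 12 fell (median change 0.56), around early signalling genes 145 of 460 rose and 13 fell (median 0.30), and around late genes 52 of 274 rose and 13 fell (median 0.09). With the covariate the 3 lists had 154, 84 and 34 risen regions, and without depolarized library 1 they had 163, 94 and 35, while of all regions within 100 kb 2330 of 103873 rose with the covariate and 2944 of 103511 without depolarized library 1. Genes for the constitutive regulators of the response (CREB, SRF, MEF2 proteins, calcium-dependent kinases and the like) had 26 of 320 regions risen and 26 fallen by summit, and 45 and 16 by interval. By summit these became 14 and 10 without depolarized library 1, 13 and 13 without depolarized library 2, 14 and 29 without unstimulated library 1, and 10 and 15 with the covariate. A start rise at Creb1 (1.19 ± 0.36, adjusted p = 0.0397) was lost in 6 of 15 alternative settings. Synapse and excitability genes had 29 of 732 regions risen and 84 fallen by summit (median −0.10), but 56 risen and 40 fallen by interval. Their falls numbered 38 without depolarized library 1, 38 without depolarized library 2 and 44 with the covariate. They included a distal site by the SNARE gene Snap25 with ranks 60639 and 53886 in depolarized and 17233 and 10578 in unstimulated neurons (−2.08 ± 0.33, adjusted p = 0.00139). This call missed the threshold with only the 4 libraries (adjusted p = 0.0562). The start of the postsynaptic scaffold gene Dlg4, without a summit in unstimulated neurons, rose to ranks 34573 and 36740 in depolarized ones (1.49 ± 0.24, adjusted p = 0.00138), and missed the threshold with only the 4 libraries (adjusted p = 0.0562).

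Housekeeping genes had 36 of 154 regions risen and 10 fallen (median 0.22). The rises numbered 20 without depolarized library 1, 22 without unstimulated library 1 and 16 with the covariate. In the main fit the risen regions lay by 7 of 18 genes. Of 27 start regions of the list 3 rose (11.1%), against 12.1% of all start regions. A site 1004 bp from the actin gene Actb (chr5:142901862-142902361) ranked 1544 and 1417 in depolarized and 36162 and 31085 in unstimulated neurons (4.50 ± 0.56, adjusted p = 0.000283). Changes above 4 also occurred nearest to the heat-shock gene Dnajb1, the polyubiquitin gene Ubb and the tubulin gene Tuba1a, as well as Actg1 named above. Subunits of the BAF and PBAF remodelling complexes had 21 of 307 regions risen and 28 fallen by summit (median −0.03), and 31 and 10 by interval. By summit these became 13 and 8 without depolarized library 1, 13 and 12 without depolarized library 2, 11 and 30 without unstimulated library 1, and 11 and 15 with the covariate.

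The lists of cell type markers are given by their counts. By summit, excitatory neuron markers had 13 of 305 regions risen and 26 fallen, inhibitory markers 3 of 101 and 6, astrocyte markers 8 of 173 and 12, oligodendrocyte markers 4 of 93 and 7, and vascular and meningeal markers 2 of 67 and 9. Microglia markers had 0 of 44 risen (2 at an unadjusted p below 0.05, limma) and 5 fallen. By interval the excitatory list had 30 rises (9.84%) and 8 falls, the inhibitory list 11 (10.9%) and 5 and the microglia list 2 and 3, against 9.22% risen and 5.18% fallen over all regions within 100 kb. These counts moved with single libraries. Without depolarized library 1, the rises and falls by summit were 3 and 8 for the excitatory, 2 and 3 for the inhibitory, 6 and 4 for the astrocyte, 1 and 1 for the oligodendrocyte, and 1 and 2 for the vascular and meningeal list, and 1 microglia region fell. Without unstimulated library 1 the excitatory list had 4 rises and 20 falls. Neural progenitor markers had 21 of 186 risen and 7 fallen (16 to 21 risen and 1 to 12 fallen without 1 library), among them Btg2, which the activity list also holds, and a region by the progenitor factor Sox9 (1.55 ± 0.22, adjusted p = 0.000574). The summed summit score of the progenitor list was 157.3 and 157.4 in depolarized and 111.4 and 126.9 in unstimulated libraries, that of the inhibitory list 59.0 and 58.4 in depolarized and 58.5 and 51.7 in unstimulated ones, and that of the microglia list 24.2 and 25.6 in depolarized and 32.2 and 32.6 in unstimulated ones. Start regions of inhibitory markers held a summit in 10 of 20 genes in each depolarized library and in 4 and 6 in the unstimulated ones. The part of cell makeup in these counts was not tested.

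**Figure D4:**
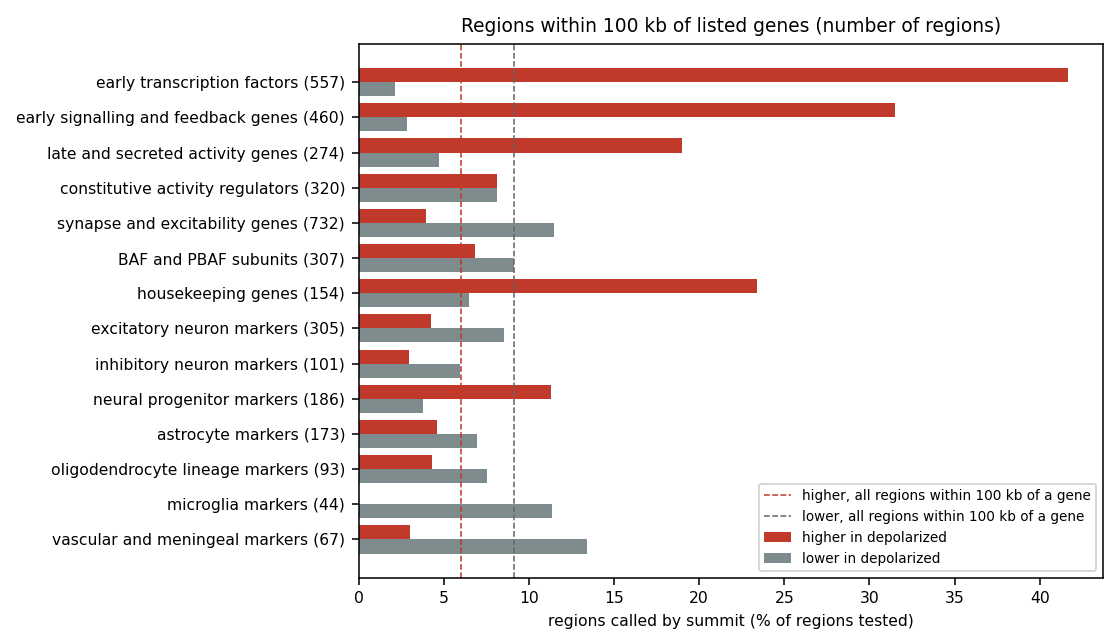
Share of tested regions within 100 kb of the genes of each list that were called higher (red) or lower (grey) in depolarized than in unstimulated neurons by summit, with the share over all such regions as dashed lines (6.03% higher, 9.15% lower). The 3 activity lists (41.7%, 31.5% and 18.98% higher) and the housekeeping list (23.4%) stand farthest above the line for gains. Neural progenitor markers (11.3%), constitutive activity regulators (8.13%) and BAF and PBAF subunits (6.84%) are also above it.

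Of the 10 largest losses, 9 are described: 6 regions inside genes, 1 at a gene start and 2 between genes, each nearest to a different gene. The largest was in a region between genes, 56365 bp from Kif13b, a kinesin gene, and within 5 kb of the Mir124a-1hg host gene of the neuronal microRNA miR-124 (chr14:64595878-64596377). It ranked 69517 and 58944 in depolarized and 8422 and 5799 in unstimulated neurons (−3.20 ± 0.41, adjusted p = 0.000309). A site inside Adgrb1, which encodes an adhesion receptor at synapses (chr15:74576881-74577380), had no summit in depolarized neurons and ranks of 11612 and 13441 in unstimulated ones (−3.00 ± 0.22, adjusted p = 2.74e-06). Inside Ppp2r2c, a brain-enriched regulatory subunit gene of protein phosphatase 2A (chr5:36894631-36895130), the ranks were 38267 and 39578 in depolarized and 4788 and 4461 in unstimulated neurons (−3.07 ± 0.36, adjusted p = 0.000169). At each of these sites both unstimulated libraries stood far above both depolarized ones. The losses had been chosen for size and for no overlap of the groups.

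Inside Stip1, the gene of a co-chaperone of heat-shock proteins (chr19:7029415-7029914), the ranks were 89235 and 88081 in depolarized and 11873 and 11642 in unstimulated neurons (−2.91 ± 0.27, adjusted p = 2.87e-05). The falls near Gatad2b, a NuRD complex subunit gene (−3.17 ± 0.29) and inside the clathrin-uncoating kinase gene Gak (−2.90 ± 0.29), the matrix protein gene Spon1 (−2.89 ± 0.41) and Myrip, a myosin and Rab adaptor gene (−2.89 ± 0.26), had adjusted p-values between 2.32e-05 and 0.000683. Myrip missed the threshold with only the 4 non-targeting libraries in the fit (adjusted p = 0.056). The start of the helicase gene Ddx41 (chr13:55535764-55536263) ranked 66166 in one depolarized library, with no summit in the other, and 9887 and 8428 in unstimulated neurons (−3.16 ± 0.72, adjusted p = 0.00984). This fall depended on the window, since with 250-bp windows the change was 0.30 (adjusted p = 0.426).

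Counted per gene, 2658 of 15414 genes with a tested region had at least 1 risen region in both units, 2953 had a fallen one, and 689 had both. At least 5 risen regions were found for 86 genes, of which 26 were in the activity lists, and at least 5 fallen ones for 71 genes. The 3 activity lists held 30, 30 and 27 of the 15414 genes. The genes with the most risen regions, named here after their counts were seen, included Npas4 (26 of 27), Egr3 (24 of 26), Homer1 (22 of 39) and Dusp1 (20 of 25), and outside the lists Dbpht2 (15 of 33), Irs2 (14 of 62), Slc2a1 (14 of 41) and Dnajb1 (13 of 19), against 3.96% of all regions. Those with the most fallen regions included the teneurin gene Tenm4 (13 of 74, 739.9 kb), the GABA-B receptor subunit gene Gabbr2 (12 of 69, 329 kb), the RNA-binding protein gene Celf4 (10 of 71, 277 kb), the transcription factor gene Myt1l (10 of 79, 396 kb) and the active-zone gene Rimbp2 (10 of 27, 196 kb), against 4.36% of all regions. Long genes hold more tested regions, so these counts are not shares.

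The response was then set beside that of the other genotypes at DIV18, which share no library with it. Of the 6458 regions risen in non-targeting neurons, 2302 also rose in Smarcc2 knockout neurons with vector (35.6% of the non-targeting and 50.5% of the knockout rises), 2701 with wild-type Smarcc2 added back (41.8% and 61.6%), 2269 with Smarcc2(S586A) (35.1% and 68.2%) and 1912 with Smarcc2(S586E) (29.6% and 62.0%). Of the 10508 fallen regions, 2471 also fell in the knockout (23.5% and 49.8%), 3843 with wild-type Smarcc2 (36.6% and 55.9%), 3143 with Smarcc2(S586A) (29.9% and 63.1%) and 1260 with Smarcc2(S586E) (11.99% and 42.0%). In each of these genotypes at most 3 of the risen and at most 2 of the fallen regions were called in the opposite direction. Of all 112681 regions, 4.04% rose and 4.40% fell in the knockout, 3.89% and 6.10% with wild-type Smarcc2, 2.95% and 4.42% with Smarcc2(S586A), and 2.74% and 2.66% with Smarcc2(S586E). Of the 83 gains above 4, 81 were called risen in the knockout, 82 with wild-type Smarcc2, 79 with Smarcc2(S586A) and 80 with Smarcc2(S586E). The background pileup in the knockout was 1.78 and 1.94 in depolarized and 1.99 and 1.69 in unstimulated libraries, so there the groups overlapped. The part of this in the larger number of non-targeting calls was not tested.

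The difference of the response between non-targeting and knockout neurons was tested directly as an interaction. It was positive in 188 of 112681 regions (0.167%) and negative in 408 (0.362%), and 101 of these 596 were also called by interval with the same sign. Of the 408, 259 had fallen in non-targeting neurons. By limma, 0 of the 83 gains above 4 and 0 of the 83 activity gene starts (the best-scoring start region of each gene) were called (13 and 3 at an unadjusted p below 0.05), and the non-targeting change was the larger one at 61 of those starts. Of the other regions nearest to activity genes 12 were called, and most of these were negative, with the larger summit change in the knockout. The negative difference of largest size lay 1704 bp from Nr4a1 (chr15:101276250-101276749, −3.72 ± 0.67, adjusted p = 0.0218), where no non-targeting library held a summit. Among the positive ones was a second start region of Gadd45b (2.78 ± 0.34, adjusted p = 0.00242), which was not called by interval (adjusted p = 0.985). The Fos start changed by 4.94 in non-targeting and 4.86 in knockout neurons, and the Nr4a1 start by 4.62 and 4.54. A test that misses its threshold does not show that the responses were the same, and the 596 calls depended on single libraries. They numbered 257 and 252 without non-targeting depolarized library 1 or 2, 1466 and 3526 without non-targeting unstimulated library 1 or 2, 1099 and 1026 without knockout unstimulated library 1 or 2, and 967 without knockout depolarized library 1.

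**Figure D5:**
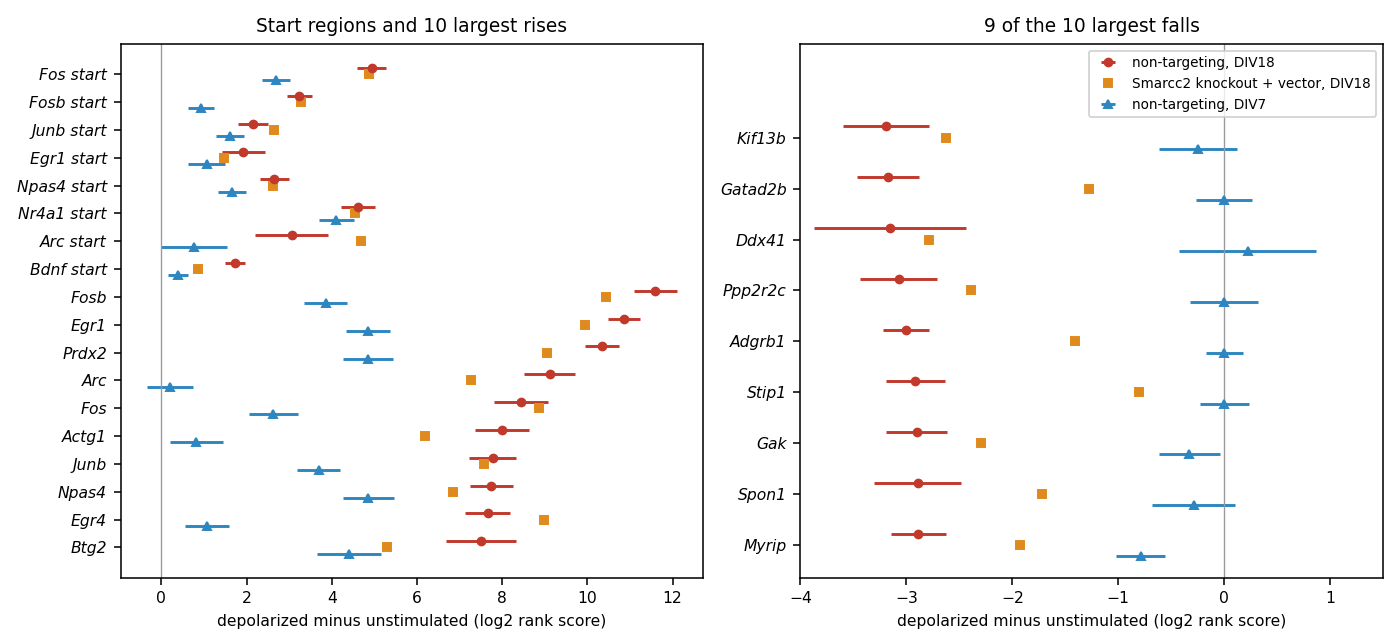
Change of the summit score (depolarized minus unstimulated) in non-targeting neurons at DIV18 (circles, with SE), Smarcc2 knockout neurons with vector at DIV18 (squares) and non-targeting neurons at DIV7 (triangles, with SE), for 8 start regions and the 10 largest gains (left) and 9 of the 10 largest losses (right). At the Fos start the changes were 4.94, 4.86 and 2.69, and at DIV7 the 9 losses lay between −0.79 and 0.22.

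At DIV7, neurons were depolarized for the same 30 min, but they belong to the experiment with Arid2KO neurons, so age and experiment cannot be told apart. In a joint fit of 28 libraries, 2969 of 138564 regions had a more positive response at DIV18 (2.14%) and 4487 a more negative one (3.24%). Together these 7456 calls became 3908 without depolarized DIV18 library 1 and 4131 without depolarized DIV18 library 2. The Fos start changed by 4.94 at DIV18 and 2.69 at DIV7, a difference of 2.25 ± 0.46 (adjusted p = 0.00795). The Fosb start changed by 3.24 and 0.93 (difference 2.31 ± 0.42, adjusted p = 0.00338). No difference was called at the Nr4a1 start (4.62 at DIV18 and 4.11 at DIV7, adjusted p = 0.715) or at the starts of Junb (adjusted p = 0.574), Npas4 (adjusted p = 0.241), Egr1 (adjusted p = 0.493) and Arc (adjusted p = 0.270).

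The far ends of the genes had been chosen for their size at DIV18, which favours a smaller change in any other set of libraries, so their DIV7 values are a description with no test. The Arc region that rose by 9.11 at DIV18 had scores of 0.40 and 0 in depolarized DIV7 neurons and 0 in both unstimulated ones. The Fosb 3′ region changed by 11.60 at DIV18 and 3.86 at DIV7, and had DIV7 scores of 4.43 and 3.28 in depolarized and 0 in both unstimulated libraries. That of Egr1 changed by 10.87 and 4.86, that of Npas4 by 7.75 and 4.86 and that of Btg2 by 7.49 and 4.41. All 10 of the largest gains had a positive change at DIV7, between 0.20 and 4.86. At the losses of Gatad2b, Ppp2r2c, Adgrb1 and Stip1 no DIV7 library held a summit at all, and at Ddx41, Gak and Spon1 no DIV7 score exceeded 0.66, so a fall of the DIV18 size could not be seen there. The Kif13b site had scores of 2.67 and 2.31 in depolarized and 2.91 and 2.57 in unstimulated DIV7 neurons, and the Myrip site 3.38 and 3.37 in depolarized and 4.29 and 4.04 in unstimulated ones.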

How the data were processed

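ATAC-seq peak lists of 44 libraries (22 groups of 2) were used, 1 narrowPeak list per library. Per the submitters' processing notes the mm10 build and bedtools, Bowtie2, FastQC, MACS2, Picard, SAMtools and Trim Galore were used, and their parameters are not given in the sources used here. The deposited lists hold, per the file headers and columns of the format, a fold enrichment of each summit over the background (a ratio, computed by the authors' peak caller) and its −log10 p-value, also from the authors. Peaks were called by the authors in each library separately. Reads and their number were not given, so the depth is known only through the background pileup (1 divided by the step between fold values, minus 1), and no counting interval is given.

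Autosomal summits (100000 per library) and intervals (75000 per library) were ranked by −log10 p. Scores, log2(cut/rank) or 0, were assigned to 500-bp regions held by at least 2 of the 20 DIV18 libraries. limma 3.58.1 in R 4.3.3 fitted 1 mean per group, with a trended prior and Benjamini-Hochberg adjustment over all regions. Interactions compared the non-targeting response with the knockout response in the same fit and with DIV7 in a joint fit of 28 libraries. Gene cover was log2(covered bases + 500) of each gene with 5 kb flanks. Scripts were tested on simulated data. Tables were made with Python 3.11.15, pandas 2.3.3 and numpy 2.4.6, and plots with matplotlib 3.10.9.

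Regions were placed by 20661 autosomal protein-coding genes of RefSeq GRCm38.p6: within 1 kb of a start or 3′ end, inside a gene, or distal up to 100 kb. Strand was known for 16456 genes through the promoter table, and the other 4205 were placed by either end. Named regions were the best-scoring start region of each activity gene (8 genes always described), the 10 largest rises and 10 largest falls called by both units with no overlap of the groups (1 per gene), and up to 4 called start or distal regions per list. A few regions so chosen are not reported here. Loci of the 8 genes and genes with the most changed regions were described in addition. The members, the 14 gene lists and the tests were chosen with earlier results of these data known. Alternatives were the number of summits kept, the library minimum, the window, the overlap, ranking by fold enrichment, the samples fitted, covariates, a replicate block and leaving out each library. Ranking by fold enrichment gave the same counts as the main fit (6458 risen and 10508 fallen by summit), so it is no separate check. The background pileup covariate was chosen after seeing the data.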

Additional observations from a re-analysis of the deposited data

Results flagged for a closer look

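Each result here was picked out because a test of the difference between 2 responses passed its threshold, by summit (limma, Benjamini-Hochberg adjusted p below 0.05). The first comparison is between non-targeting and Smarcc2 knockout neurons with vector. The 2 regions given for it are positive, but most of the 12 called regions nearest to activity genes were negative. Among the negative ones were regions by Nr4a1 (−3.72, adjusted p = 0.0218), Sik1 (−0.557, adjusted p = 0.00247) and Nr4a3 (−0.519, adjusted p = 0.00345; limma). Near Egr3 a region at chr14:70077288-70077787 ranked 7412 and 7815 in depolarized non-targeting neurons, with no summit in one unstimulated library and rank 73923 in the other, while in the knockout it held no summit in depolarized and ranks 63560 and 61621 in unstimulated neurons. The difference was 4.17 ± 0.34 (adjusted p = 0.000344) by summit and was not called by interval (adjusted p = 0.952). At Gadd45b a region at chr10:80930277-80930776 differed by 2.78 ± 0.34 (adjusted p = 0.00242), also by summit only (adjusted p = 0.985 by interval). At Egr3 the neighbouring region with the main summit rose in both genotypes, by 3.86 in non-targeting and 3.34 in knockout neurons. At Gadd45b that region rose by 1.46 in non-targeting neurons (adjusted p = 0.0251), and its change of 1.25 in knockout neurons was not called (adjusted p = 0.0728).

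Between DIV18 and DIV7 the response was more positive at DIV18 at the starts of Fos (2.25, adjusted p = 0.00795), Fosb (2.31, adjusted p = 0.00338) and Bdnf (1.33, adjusted p = 0.0268). Start regions of activity genes outside the 8 passed as well (limma). Among them were Egr2 (2.05, adjusted p = 0.00545), Egr3 (2.33, adjusted p = 0.0179), Egr4 (2.38, adjusted p = 0.00310) and Btg2 (2.16, adjusted p = 0.00777). Age and experiment cannot be told apart, and the background pileup was 1.80 and 1.39 in depolarized and 1.69 and 1.66 in unstimulated DIV7 libraries, below the 3.68 and 2.85 of depolarized DIV18 libraries. Its part in these differences was not tested.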

How the results depend on the processing

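The count of 16966 regions called by summit was 10354 with the top 50000 summits (58997 regions tested), 479 with only the 4 non-targeting libraries, 7513 with the background pileup as covariate, and 6994 to 17218 when 1 library was left out. With windows of 250 bp it was 18676 (45.6% risen) and with 1000 bp 14588 (30.9% risen). By interval, 16399 calls became 4637 with only the 4 libraries, 5346 with the covariate and 6358 to 15362 without 1 library. For gene cover, 2074 calls became 576 with the covariate and 699 to 2242 without 1 library. The difference from the knockout (596 calls) gave 373 by interval score and 252 to 3526 without 1 library, and the difference from DIV7 (7456 calls) gave 3908 to 10849 without 1 library. The Ddx41 start changed sign with 250-bp windows (0.30, adjusted p = 0.426), and the cause was not tested. Of 109 named regions called, 44 were called with only the 4 libraries, 74 with the background pileup as covariate and 80 to 95 without 1 library. With the log2 number of intervals as covariate 99 were called. Replicate numbers are shared between the groups, and deviations of same-numbered libraries correlated at r = 0.145 across 112681 regions, with only 2 pairs. With a replicate block the calls were 19121 by summit, 18568 by interval and 2213 for gene cover, and 108 of the 109 named regions kept their call. Read depth limits which weak sites are listed.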
